A study of Gallus gallus with 6 samples.

Results

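The genes described here make, break down and read retinoic acid. They are the 10 genes named STRA6, DHRS3, ALDH1A2, ALDH1A3, CYP26A1, CYP26B1, CYP26C1, RARA, RARB and RARG, each found once by its symbol among the 21062 genes with normalized counts. Wild-type explants cut from the posterior part of HH20 (Hamburger Hamilton stage 20) chick wing buds were embedded in growth factor reduced Matrigel and cultured in medium with fetal bovine serum. The Fgf receptor inhibitor SU5402, at 5 µM in DMSO, or DMSO alone as control, was added at the start, and whole explants were collected after 48 h. There were 3 libraries per treatment, each made from a pool of explants. The comparison asks what these explants express after 48 h with the Fgf receptor inhibitor. Both treatments share the serum, the Matrigel and the solvent, and the explants keep ectoderm, vessels and muscle precursors besides the mesenchyme named in the labels.

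Retinoic acid is made from vitamin A. STRA6 is a membrane receptor that brings retinol into cells, retinol dehydrogenases oxidise retinol to retinal, and DHRS3 reduces retinal back to retinol. The aldehyde dehydrogenases ALDH1A2 and ALDH1A3 carry out the irreversible step from retinal to retinoic acid, and the CYP26 enzymes hydroxylate retinoic acid and so lead to its removal. Retinoic acid binds the nuclear receptors RARA, RARB and RARG, which act on DNA together with retinoid X receptors. In the early limb bud, retinoic acid from the flank and Fgfs from the apical ectodermal ridge (AER) oppose each other along the axis from shoulder to digits. In the mouse, Cyp26b1 is expressed in the distal limb mesenchyme.

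The DMSO libraries held 25849833 to 44261768 gene reads and the SU5402 libraries 29390751 to 37373688. Values of single genes are normalized counts, which are reads divided by the DESeq2 size factor of the library, and levels of different genes are compared only as FPKM, which divides by gene length and by a total shared by all libraries. Values after ± are SDs over the 3 libraries of a treatment. Changes are given as the log2 ratio of SU5402 to DMSO, estimated by limma on log2(normalized count + 1), and negative ratios mean lower expression with SU5402. A gene was called when its p-value, adjusted over all genes tested, was below 0.05 and its change exceeded 2-fold, and genes past the adjusted p-value alone are named as such. All 9 Fgf readout genes examined, the Sprouty, Spred, ETV4/5 and DUSP6 genes, were lower in every SU5402 library than in any DMSO library. This was so for 25.6% of all genes tested. Of the 9, 8 were called lower, beside 4.54% of all genes tested. DUSP6, listed as MKP3, went from 3439 ± 158 normalized counts to 511 ± 59.7. The wing gene TBX5 had 13767 ± 261 and 13461 ± 425, whereas the leg gene TBX4 had 17.2 ± 8.31 and 14.8 ± 8.07.

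SU5402 changed the retinoic acid genes unevenly. ALDH1A3 fell 6.88-fold and CYP26B1 2.18-fold, DHRS3 rose 2.11-fold, RARA and STRA6 fell and RARB rose by less than 2-fold, and ALDH1A2, RARG, CYP26A1 and CYP26C1 did not pass the test. All 10 members passed the filter on low values, and 3 of them were called, with 2 lower and 1 higher with SU5402. Among all 16324 genes tested 10.8% were called, 4.54% lower and 6.26% higher. On the adjusted p-value alone, 4 members were lower and 2 higher, beside 16.0% and 14.4% (together 30.4%) of all genes. The libraries of the treatments did not overlap for 6 of the 10, with SU5402 below DMSO for 4 and above for 2, which was so for 49.7% of all genes tested, 25.6% below and 24.2% above. The share called was larger than among all genes, but it rests on 3 genes. The members were also chosen with earlier results of these data known, so this difference cannot be read as a property of the pathway. The share without overlap was close to the background. The median log2 ratio of the members was -0.22, and that of all genes tested was 0.01.

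**Figure D1:**
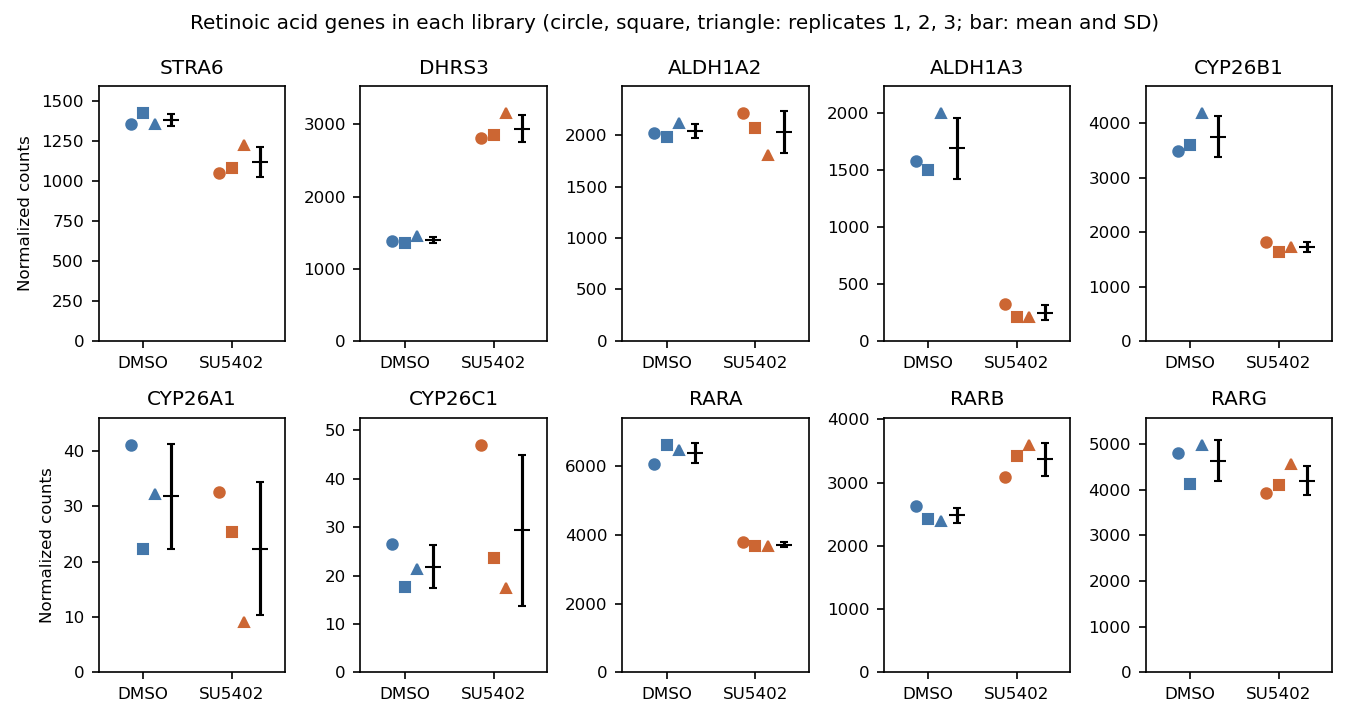
Normalized counts (vertical axes, each from 0) of the 10 retinoic acid genes in the 3 DMSO (blue) and 3 SU5402 (orange) libraries, with the mean and SD beside the points. ALDH1A3, CYP26B1, RARA and STRA6 lie lower in all SU5402 libraries, DHRS3 and RARB lie higher, and the other 4 overlap.

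The aldehyde dehydrogenases ALDH1A2 and ALDH1A3 were of similar order in control explants and differed in their change. All positions below are on the GRCg6a build. ALDH1A3 (ENSGALG00000033365, chromosome 10 from 17875706 to 17910716) had 1581, 1502 and 2001 normalized counts in the 3 DMSO libraries and 322, 208 and 208 in the 3 SU5402 libraries. The lowest DMSO library lay far above the highest SU5402 library. The mean fell from 1695 ± 268 to 246 ± 65.8, a log2 ratio of -2.80 (SE 0.22, 95% interval -3.34 to -2.25, adjusted p = 0.0010) by limma's moderated test. This change was lower than that of all but 1.01% of the genes tested. Omitting any single library left the ratio between -3.01 and -2.67, and ALDH1A3 was called under all 19 alternative settings.

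ALDH1A2 (ENSGALG00000004270, chromosome 10 from 7557497 to 7611673), the main source of retinoic acid in the trunk mesoderm of vertebrate embryos, had 2025, 1986 and 2117 normalized counts with DMSO and 2212, 2070.1 and 1808 with SU5402. The SU5402 libraries lay on both sides of the DMSO libraries. Its log2 ratio was -0.01 (SE 0.09, adjusted p = 0.92), and the 95% interval from -0.24 to 0.22 leaves out a 2-fold change in either direction. On the FPKM scale, where lengths are taken into account, ALDH1A3 held 40.0% ± 2.91 of the summed level of both genes with DMSO and 8.85% ± 1.53 with SU5402. The sum itself was 27.2 to 31.8 FPKM with DMSO and 16.8 to 21.1 with SU5402. ALDH1A2 was thus 1.51 ± 0.176 times as abundant as ALDH1A3 with DMSO and 10.5 ± 1.91 times with SU5402.

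The enzymes of retinoic acid breakdown were represented almost wholly by CYP26B1. CYP26B1 (ENSGALG00000016102, chromosome 4 from 90145114 to 90161305) had 3483, 3599.7 and 4184 normalized counts with DMSO and 1819, 1632 and 1729 with SU5402. Every SU5402 library was below every DMSO library. The mean fell from 3755 ± 376 to 1727 ± 93.2, a log2 ratio of -1.12 (SE 0.09, 95% interval -1.35 to -0.88, adjusted p = 0.0013). CYP26B1 remained called with each library left out (log2 ratio -1.17 to -1.04), but not by limma's treat, which tests against a 2-fold change. With DMSO it was the most abundant of the 10 members at 72.8 ± 7.28 FPKM, above 93.4% of protein-coding genes, and with SU5402 it was at 33.5 ± 1.81 FPKM, above 82.8%.

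CYP26A1 (ENSGALG00000033695) and CYP26C1 (ENSGALG00000043213) lie 2987 bases apart on the minus strand of chromosome 6, from 21525301 to 21528367 and from 21531354 to 21536861, and both were near the lower end of detection. For CYP26A1 there were 31, 29 and 30 reads in the DMSO libraries and 29, 29 and 10 in the SU5402 libraries, or 41.1, 22.2 and 32.1 against 32.5, 25.4 and 9.14 normalized counts. The low value of SU5402 replicate 3 set most of its log2 ratio of -0.62 (SE 0.50, adjusted p = 0.40), which was -0.10 without that library. CYP26C1 had 20, 23 and 20 reads with DMSO and 42, 27 and 19 in the treated libraries, a log2 ratio of 0.31 (SE 0.38, adjusted p = 0.58), which turned to -0.083 without SU5402 replicate 1. For both genes the treatments overlapped and the 95% intervals, -1.88 to 0.65 and -0.65 to 1.27, include a 2-fold fall of CYP26A1 and a 2-fold rise of CYP26C1 and leave out a 2-fold rise of CYP26A1 and a 2-fold fall of CYP26C1. Their neighbour EXOC6, 1341 bases from CYP26C1 and a part of the vesicle-tethering exocyst, had 535 and 496 normalized counts on average, a log2 ratio of -0.11 (adjusted p = 0.32). The unnamed genes ENSGALG00000006705 and ENSGALG00000051258, within 100 kb of both, each had a log2 ratio of -0.29 (adjusted p = 0.060 and 0.26). Near CYP26B1, an unnamed minus-strand gene 22240 bases away had a log2 ratio of 0.52 (adjusted p = 0.0049). EXOC6B, 26284 bases from CYP26B1, had a log2 ratio of 0.22 (adjusted p = 0.035). Both were opposite in sign to CYP26B1. On the strand of CYP26B1, 4661 bases beyond its end, the lncRNA gene ENSGALG00000048407 had 8, 7 and 9 reads in the control libraries. It had 0, 0 and 1 in the treated ones, too few to be tested.

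CYP26B1 made up 98.7% ± 0.372 of the summed CYP26 level on the FPKM scale with DMSO and 97.4% ± 1.23 with SU5402. The sum was 68.7, 70.5 and 82.0 FPKM in the DMSO libraries and 36.7, 32.5 and 34.0 in the SU5402 libraries. The summed level of ALDH1A2 and ALDH1A3 was 0.410, 0.387 and 0.388 times that of the CYP26 genes with DMSO and 0.574, 0.587 and 0.495 times with SU5402. This ratio of transcripts was higher in each SU5402 library although both sums were lower there. It is a description of RNA levels, since neither enzyme activity nor retinoic acid was measured.

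**Figure D2:**
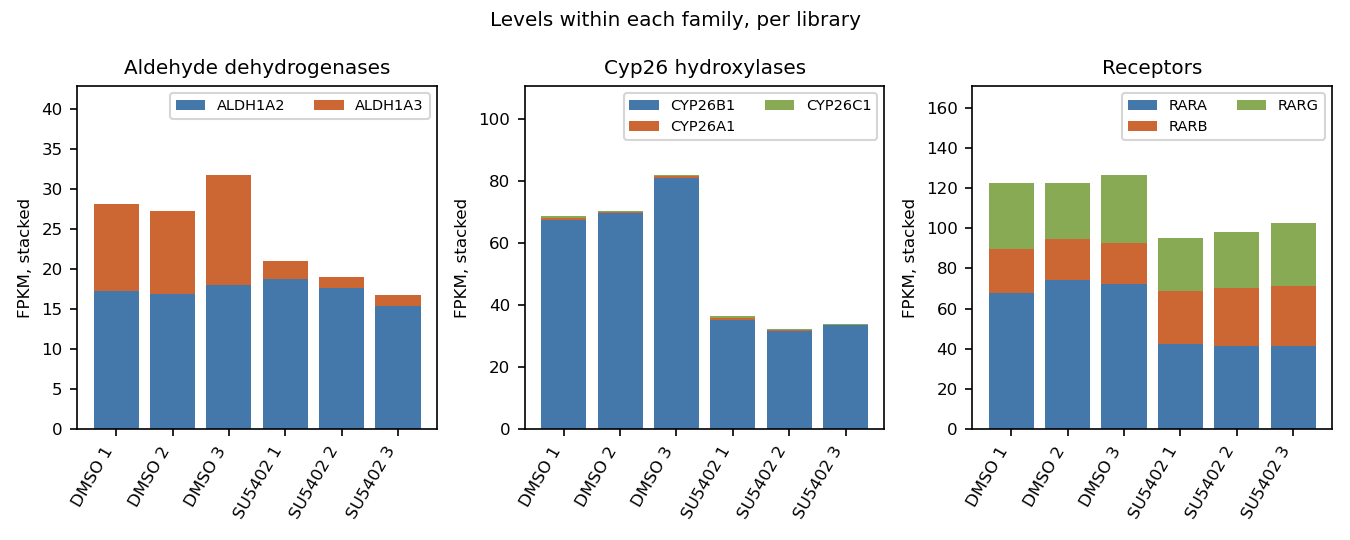
Stacked FPKM (vertical axes) of the aldehyde dehydrogenases, the CYP26 hydroxylases and the retinoic acid receptors in each of the 6 libraries (horizontal axes). The ALDH1A3 segment shrinks from 40.0% to 8.85% of its family on average, CYP26B1 fills 98.7% and 97.4% of its family, and the RARB segment goes from 16.8% to 28.7% of the receptors.

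Upstream of these steps, the retinal reductase and the retinol receptor moved in opposite directions. DHRS3 (ENSGALG00000030376, chromosome 21 from 5314485 to 5343907) had 1389, 1353 and 1447 normalized counts with DMSO and 2816, 2857 and 3152 with SU5402, without overlap. The mean rose from 1396 ± 47.1 to 2942 ± 183, a log2 ratio of 1.07 (SE 0.07, 95% interval 0.90 to 1.25, adjusted p = 6.3e-04). DHRS3 is itself induced by retinoic acid in vertebrate embryos, and RARB is a well-known target of retinoic acid. Whether retinoic acid induces the other members was not examined here. Of those, ALDH1A3, CYP26B1, RARA and STRA6 fell, and none passed the test as higher. The list of responsive genes described below holds neither DHRS3 nor RARB. On the adjusted p-value alone 7 of its genes were higher and 7 lower, beside 14.4% and 16.0% of all genes tested. A part of retinoic acid in the rise of DHRS3 or RARB was not tested. The call of DHRS3 held with each library left out, between 1.02 and 1.10. It was lost with limma's treat and on FPKM with 1 added, where the value was 0.99.

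STRA6 (ENSGALG00000001449, chromosome 10 from 3042694 to 3053063) had 1353, 1421 and 1356 normalized counts with DMSO and 1049.8, 1076 and 1221 with SU5402. All SU5402 libraries were lower, but the distance between the nearest libraries was small beside the levels. The log2 ratio was -0.31 (SE 0.08, adjusted p = 0.036), which is 1.23-fold on the means. The adjusted p-value passed 0.05 only without SU5402 replicate 3 when libraries were left out in turn, and was between 0.081 and 0.11 without any of the other 5. It was 0.065 with no filter on low values.

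All 3 retinoic acid receptors were well expressed, and their proportions shifted. RARA (ENSGALG00000037935, chromosome 27 from 7217090 to 7233200) had 6046, 6617 and 6458 normalized counts with DMSO and 3799.7, 3679.6 and 3675 with SU5402. The mean fell from 6374 ± 294 to 3718 ± 70.6, a log2 ratio of -0.78 (SE 0.06, 95% interval -0.93 to -0.63, adjusted p = 0.0010). Its adjusted p-value passed with any library left out, and its change lay short of 2-fold throughout.

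RARB (ENSGALG00000011298, chromosome 2 from 37462364 to 37785654), whose gene is a well-known target of retinoic acid, had 2625, 2422 and 2397 normalized counts with DMSO and 3087, 3425 and 3598 with SU5402. The lowest SU5402 library was above the highest DMSO library. The log2 ratio was 0.44 (SE 0.08, 95% interval 0.23 to 0.65, adjusted p = 0.014), and the adjusted p-value was 0.052 without DMSO replicate 2, 0.052 without DMSO replicate 3 and 0.067 with the replicate number as a block. RARB overlaps the opposite-strand gene TOP2B by 25 bases, and TOP2B had a log2 ratio of 0.05 (adjusted p = 0.52). RARG (ENSGALG00000033404, chromosome 33 from 7203263 to 7213958), which in the mouse acts in cartilage, had 4804, 4119.7 and 4983 normalized counts with DMSO and 3932, 4105 and 4552 with SU5402. These ranges overlapped, and the log2 ratio was -0.14 (SE 0.10, 95% interval -0.40 to 0.12, adjusted p = 0.35). RARG shares 1270 bases with the same-strand gene ITGB7, which had at most 178 normalized counts in any library. How reads from the shared bases were assigned is not given, and the effect on the level of RARG was not tested.

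RARA accounted for 57.8% ± 2.63 of the summed receptor level on the FPKM scale with DMSO and 42.4% ± 2.25 with SU5402. The share of RARB was 16.8% ± 1.06 and 28.7% ± 1.29, and that of RARG 25.4% ± 2.24 and 28.9% ± 1.15. The shares of all 3 receptors did not overlap between treatments, although the normalized counts of RARG did. With SU5402 the shares of RARB and RARG overlapped. The sum was 123, 123 and 126 FPKM in the DMSO libraries and 95.3, 97.9 and 102 in the SU5402 libraries. The order of levels among the 10 genes changed accordingly. With DMSO, CYP26B1 and RARA (72.8 and 71.6 FPKM) overlapped at the top and were followed by RARG at 31.5, RARB at 20.8, ALDH1A2 at 17.4, STRA6 at 14.8, ALDH1A3 at 11.7 and DHRS3 at 8.30, with no overlap between neighbours, and then by CYP26A1 and CYP26C1 at 0.492 and 0.424, which overlapped. With SU5402, RARA at 41.7 FPKM lay above CYP26B1, RARG and RARB (28.5 and 28.3) overlapped, DHRS3 at 17.5 overlapped with ALDH1A2 at 17.3, and ALDH1A3 at 1.69, which with DMSO had been above DHRS3, was below it and, as with DMSO, below STRA6 at 12.0.

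**Figure D3:**
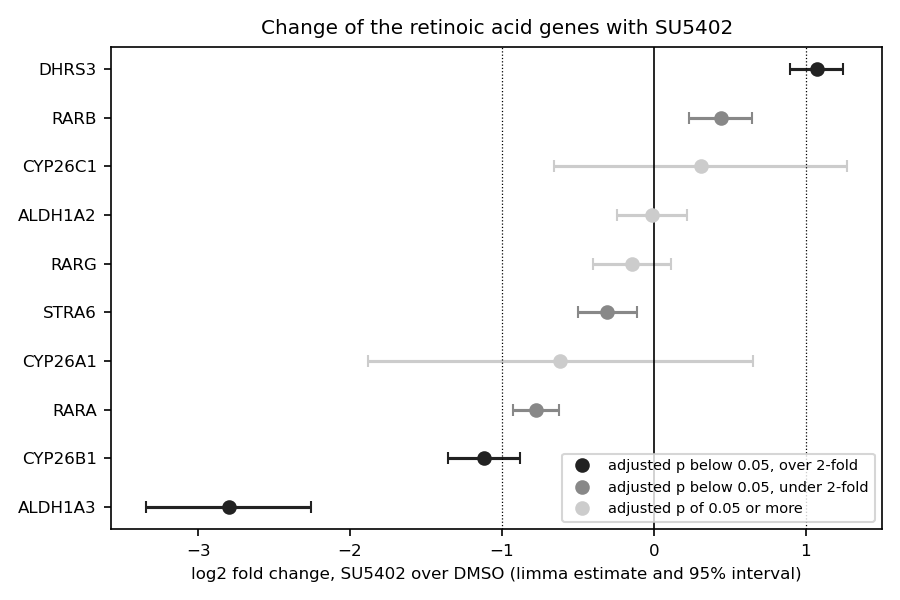
Log2 ratio of SU5402 to DMSO (horizontal axis, limma estimate and 95% interval) for the 10 genes, with dotted lines at a 2-fold change. ALDH1A3 stands apart at -2.80, CYP26B1 and DHRS3 lie just past the dotted lines, and the intervals of CYP26A1 and CYP26C1 are the widest.

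Other genes that handle vitamin A and retinoic acid were examined from lists chosen for their roles. Like the members, the lists were chosen with earlier results of these data known. Their shares beside all genes tested therefore cannot be read as a property of the pathway. In the list for uptake, binding and storage, 11 of 13 genes were tested, 2 were called lower and none higher. On the adjusted p-value alone 3 were lower and 2 higher, and the median log2 ratio was 0.01. Over all genes tested, 4.54% were called lower and 6.26% higher, and 16.0% were lower and 14.4% higher on the adjusted p-value alone. CRABP2, a carrier that delivers retinoic acid to receptors in the nucleus, had 18312, 17217 and 16706 normalized counts with DMSO and 8439.9, 7795 and 8859 with SU5402, a log2 ratio of -1.06 (SE 0.07, adjusted p = 8.0e-04). CRABP1, listed as CRABP-I, binds retinoic acid in the cytoplasm and rose from 10927 ± 1681 to 15782 ± 176, a log2 ratio of 0.54 (adjusted p = 0.026). These carriers therefore moved in opposite directions, and at 1243 and 396 FPKM with DMSO both were more abundant than any of the 10 members. RLBP1, a retinal carrier best known from the eye, fell from 226 ± 32.7 to 55.9 ± 5.57, a log2 ratio of -1.99 (adjusted p = 6.6e-04). FABP5, which can also carry retinoic acid, passed on the adjusted p-value alone with a log2 ratio of 0.76 (adjusted p = 0.0040). By limma 4 genes of this list were higher at an unadjusted p-value below 0.05, and edgeR and DESeq2 each called 1 higher, the retinol transport gene TTR, which had 5.40 ± 6.04 and 29.4 ± 11.0 normalized counts.

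Among the dehydrogenases and carotenoid enzymes, 12 of 18 listed genes were tested, 2 were called higher and none lower, with a median log2 ratio of 0.13. Of all genes tested, 6.26% were called higher and 4.54% lower. ALDH1A1, the remaining aldehyde dehydrogenase of the ALDH1A family, rose from 14.9 ± 6.03 to 47.4 ± 5.62 normalized counts, a log2 ratio of 1.68 (SE 0.32, adjusted p = 0.015), but at 0.404 FPKM with SU5402 it stayed below both ALDH1A2 and ALDH1A3. Its adjusted p-value was 0.052 without SU5402 replicate 1. ADH1C, an alcohol dehydrogenase, rose from 122 ± 36.0 to 390.3 ± 54.0, a log2 ratio of 1.71 (adjusted p = 0.0078). RDH10, the retinol dehydrogenase that feeds retinoic acid synthesis in mouse embryos, had 639.9 ± 78.8 and 781 ± 135, a log2 ratio of 0.28 (SE 0.15, adjusted p = 0.23). RDH11 fell by 0.64 on the log2 scale (adjusted p = 0.0028). By limma 2 genes of this list were lower at an unadjusted p-value below 0.05, and neither edgeR nor DESeq2 called any gene lower.

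Receptor partners and cofactors showed only small differences. Of 15 listed, 13 were tested and none was called by limma, edgeR or DESeq2, while limma called 10.8% of all genes tested. At an unadjusted p-value below 0.05 by limma, 3 were lower and none higher. The retinoid X receptors RXRA and RXRG had log2 ratios of -0.09 (95% interval -0.31 to 0.12, adjusted p = 0.45) and -0.14 (95% interval -0.44 to 0.16, adjusted p = 0.43). The receptor coactivator NCOA1 and the zinc finger cofactor ZNF423 fell by 0.23 and 0.22 on the log2 scale (adjusted p = 0.046 and 0.027), and the log2 ratios of all 13 lay between -0.30 and 0.12.

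A list of genes known to respond to retinoic acid in embryos or cells was split in direction. Of 24 listed, 21 were tested, and limma called 1 lower and none higher, beside 4.54% and 6.26% of all genes tested. On the adjusted p-value alone 7 were higher and 7 lower, beside 14.4% and 16.0%. The median log2 ratio was 0.07. The treatments did not overlap for 19 of the 21, beside 49.7% of all genes. MEIS1, a homeobox gene of the proximal limb, rose from 5728 ± 134 to 8456 ± 445 normalized counts, a log2 ratio of 0.56 (SE 0.06, adjusted p = 0.0030), and MEIS2, listed as Meis2a.2, rose by 0.49 (adjusted p = 0.022). NR2F2, an orphan nuclear receptor, rose by 0.90 (adjusted p = 0.0018), and HOXB2, HOXB4 and HOXB6 rose by 0.89, 0.74 and 0.63. On the other side, RARRES1, RARRES2 and TGM2, which are induced by retinoids in mammalian cells, fell by 0.83, 0.76 and 0.64, and HOXD3 fell from 1642 ± 28.4 to 700.4 ± 53.7, a log2 ratio of -1.23 (adjusted p = 5.2e-04). At an unadjusted p-value below 0.05, 9 genes of the list were higher by limma. DESeq2 called none higher, and edgeR called 1.

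**Figure D4:**
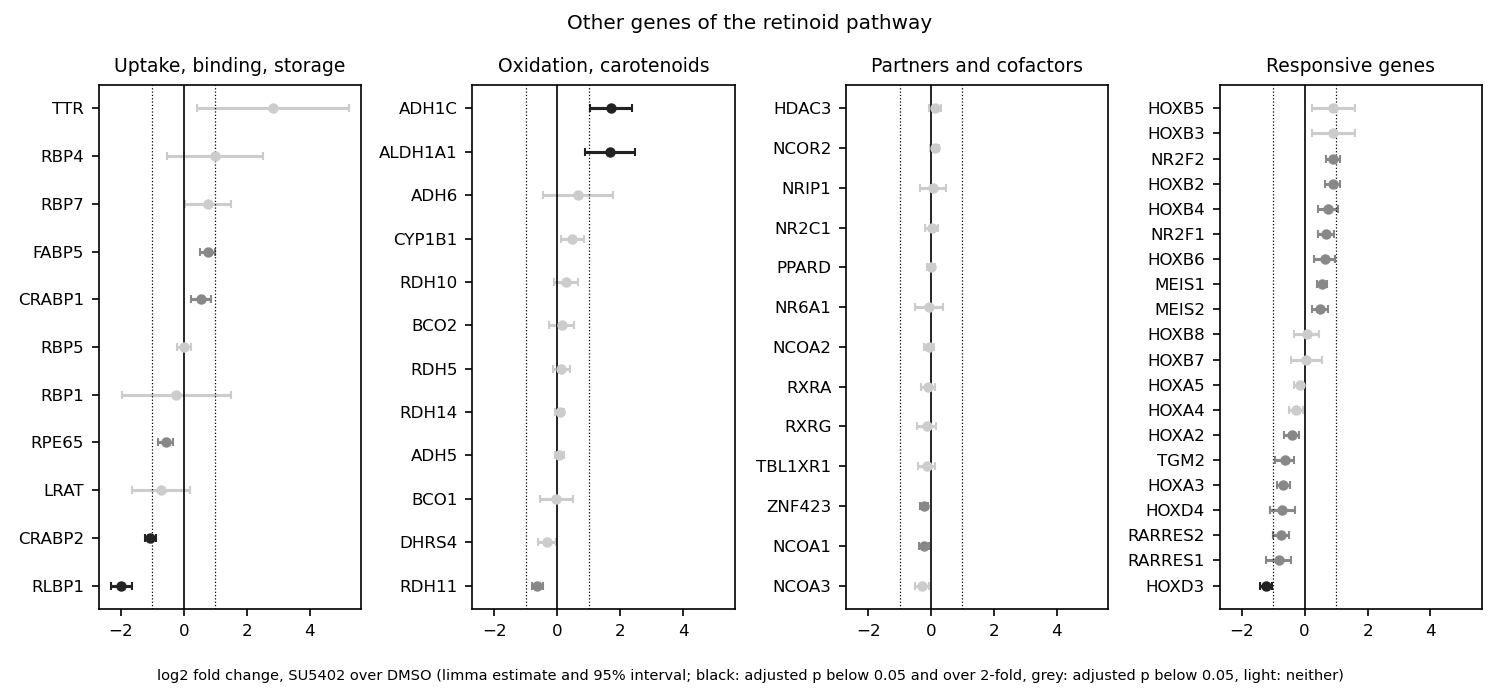
Log2 ratio of SU5402 to DMSO (horizontal axes, limma estimate and 95% interval) of the tested genes of 4 retinoid lists, except 1 responsive gene that is not shown, with dotted lines at a 2-fold change. Of the called genes (black), RLBP1, CRABP2 and HOXD3 lie past the line on the left and ADH1C and ALDH1A1 on the right, and all 13 partners and cofactors lie close to 0.

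Markers of several cell types moved with the treatment, and in whole explants fewer cells of a type cannot be told apart from less RNA per cell. The counts below stand beside 4.54% of all genes tested called lower and 6.26% called higher. Of 14 endothelial genes tested, 10 were called lower and none higher. On the adjusted p-value alone 13 were lower and 1 higher, beside 16.0% and 14.4% of all genes tested. The summed level of the endothelial genes was 392 to 416 FPKM with DMSO and 94.8 to 101 with SU5402. Of 7 AER genes tested, 5 were called lower and 1 higher (51.4 to 56.0 against 28.1 to 32.4 FPKM), with the AER ligand FGF8 at 107 ± 45.7 and 0.75 ± 1.29 normalized counts, and of 7 cartilage genes 5 were lower (209 to 283 against 149 to 184). Higher were 7 of 11 ectoderm genes (169.8 to 219.9 against 375 to 402 FPKM), 9 of 10 muscle genes (36.8 to 41.8 against 154 to 209), 4 of 9 macrophage genes (18.2 to 22.4 against 41.1 to 56.4) and 4 of 5 red blood cell genes (115 to 148 against 358 to 504). For limb mesenchyme 2 of 8 genes were lower (791 to 844 against 660.0 to 719 FPKM). For leg and flank 2 of 4 were called higher, and 1 was lower on the adjusted p-value alone. The summed level of the leg and flank genes was lower with SU5402 (79.0 to 95.4 against 58.9 to 63.2 FPKM). Of 5 glial and neural crest genes 1 was lower (264 to 332 against 51.8 to 56.8), which was FABP7, while SOX10 had 17.8 and 39.9 normalized counts on average. Among hypoxia genes 5 of 7 were lower (824 to 841 against 227 to 285 FPKM), and among p53 targets 1 of 7 was lower and 1 higher (143 to 155 against 146 to 153). No matched marker had 3 reads or fewer in all libraries, although TBX4 and SOX10 were low in both treatments. The part of these cell types in the changes of ALDH1A3, CYP26B1, DHRS3, RARA, RARB and STRA6 was not tested.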

How the data were processed

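Messenger RNA of pooled explants was sequenced in 6 libraries, 3 per treatment. Per the labels and the study's methods, the authors mapped reads with HISAT2 2.0.5 to GRCg6a, counted them on genes with featureCounts 1.5.0-p3 and normalized them with DESeq2 1.20.0. Whether counting used strand is not given in the sources used here. The deposited signal values are counts divided by a size factor per library. All were whole multiples of 1 step per library (100% of values, tolerance 0.01), so the reads were recovered. The deposited FPKM values use 1 shared total (33590126) in all libraries. The deposited fold changes and p-values of the authors' own comparison were not used.

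Genes that reached 10 normalized counts in 3 or more libraries (16324) were compared with limma 3.58.1 (R 4.3.3) on log2(value + 1), with Benjamini-Hochberg adjustment over all of them. The fit was tested on simulated data. The members and lists were chosen with earlier results of these data known. Named genes are the members, the listed genes and the neighbours of the CYP26 genes within 100 kb; TOP2B and ITGB7 were added after their values were seen, because they overlap members. Of 186 list entries, 165 were matched, 10 of these through the gene description or the NCBI gene number (RefSeq, GRCg7b). Alternatives were a pseudocount of 0.5, edgeR 4.0.16 on recovered reads (TMM or RLE), DESeq2 1.42.0, no filter or one of 50, FPKM of at least 1 with 1 or 0.1 added, a replicate block, an intensity trend, limma's treat, no 2-fold threshold, and each library left out. Values of some listed genes are not reported here. A planned description of promoter motifs was not made. P-values set the difference between treatments against the spread between these pools, which limma moderates with values from all genes tested.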

Additional observations from a re-analysis of the deposited data

How the results depend on the processing

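The direction of all members but ALDH1A2 and CYP26C1 was kept under every alternative run. With each library left out, the log2 ratio of ALDH1A2 was between -0.078 and 0.068 (0.01 without DMSO replicate 3, 0.068 without SU5402 replicate 3), and that of CYP26C1 between -0.083 (without SU5402 replicate 1) and 0.61; the cause was not tested. The 3 calls among members held with each library left out (2 lower, 1 higher). They became 1 lower and 0 higher with limma's treat, 2 lower and 0 higher on FPKM with 1 added, and 4 lower and 2 higher on the adjusted p-value alone. Counted on the adjusted p-value alone, a count chosen after seeing the data, between 3 and 4 members were lower and between 1 and 2 higher with a library left out, and 3 were lower and 1 higher with the replicate block in limma. With no filter 3 were lower, since STRA6 no longer passed (adjusted p = 0.065). The calls over all genes, 1763 of 16324 tested, became 454 with treat and 4958 on the adjusted p-value alone. On FPKM with 1 added, where 13956 genes were tested, they became 903.

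For the uptake list, treat called 1 lower; edgeR (TMM, RLE and replicate block), DESeq2 and the intensity trend called 1 higher, the adjusted p-value alone gave 3 lower and 2 higher, and with a library left out 0 to 1 were higher (1 without DMSO replicate 1). For the oxidation list, the higher count of 2 became 1 with a filter of 50 and on FPKM with either pseudocount, 0 with treat and 1 to 2 with a library left out (1 without SU5402 replicate 1), and 1 was lower on the adjusted p-value alone. For the partners, 2 were lower on the adjusted p-value alone. For the responsive list, treat called 0 lower, edgeR (TMM, RLE, replicate block) and the intensity trend called 1 higher, the adjusted p-value alone gave 7 and 7, and 0 to 1 were higher with a library left out (1 without SU5402 replicate 3).

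The sources used here do not say whether same-numbered libraries were paired. Their deviations from the treatment means correlated at 0.04, 0.003 and 0.06, and those of differently numbered libraries at -0.07 to 0.03. With 3 libraries per treatment, these weak correlations cannot settle whether the libraries were paired. The replicate block changed no 2-fold call among the members in limma or edgeR, and in limma STRA6 and RARB no longer passed on the adjusted p-value (0.091 and 0.067). Neither CYP26A1 nor CYP26C1 could be tested with a filter of 50 or on FPKM, and at 10 to 42 reads per library their 95% intervals include a 2-fold change in 1 direction each.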
